A study of Mus musculus with 5 samples.

Results

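The nuclear-encoded respiratory chain genes were taken as the protein-coding genes whose symbols carry the names of respiratory chain components: Ndufa, Ndufb, Ndufc, Ndufs and Ndufv for complex I, Sdha to Sdhd for complex II, Uqcr and Cyc1 for complex III, Cycs for cytochrome c, Cox4 to Cox8 for complex IV and Atp5 for complex V. The names were found at 96 of the 55573 genes in the count table. They comprised 38 complex I subunits, 8 complex I assembly factors (Ndufaf), 4 complex II genes, 9 complex III genes, 1 cytochrome c gene, 18 complex IV genes and 18 complex V genes. The measure was polyadenylated RNA of N2A cells, a commercially supplied mouse neuroblastoma line grown in DMEM/F-12 with serum. Cells of the 2 siCtl libraries had received 60 pmol of the control siRNA Silencer Negative Control #1, and cells of the 3 siUpf1 libraries 60 pmol of an siRNA against Upf1, both delivered with TransIT-X2. UPF1 is the RNA helicase at the centre of nonsense-mediated mRNA decay (NMD), and the comparison asks how the level of each mRNA differs when Upf1 is knocked down. All libraries came from 1 cell line and 1 siRNA per group, and the labels do not say whether libraries of a group came from separate cultures, so p-values measure the spread between these libraries.

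The respiratory chain sits in the inner mitochondrial membrane. Complexes I and II take electrons from NADH and succinate and pass them by ubiquinone to complex III, cytochrome c carries them on to complex IV, which reduces oxygen, and the protons pumped on the way drive ATP synthesis by complex V. Most subunits are encoded in the nucleus and imported, while a small set of core subunits of complexes I, III, IV and V is encoded by mitochondrial DNA, so that each of these complexes is built from mRNAs of both genomes.

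Reads assigned to genes ranged from 20402205 to 27717594 per library. Upf1 itself measured 5217 and 5243 normalised counts in siCtl 1 and 3 and 2403, 2496 and 2449 in siUpf1 1, 2 and 3, a fall to 46.8% of the siCtl mean (DESeq2 adjusted p = 7.27e-101). Of 15 genes of sympathoadrenal and neuronal identity, 14 had at least 10 reads in a library. Their summed level was 2031 to 2064 RPM (reads of a gene scaled to a fixed total of assigned reads) in siCtl and 2368 to 2488 in siUpf1, and the part of this shift in the results was not tested. Marker lists of astrocytes, oligodendrocytes, fibroblasts and leukocytes summed to at most 21.5 RPM each in any library, and Mog and Col3a1 had 0 reads in all libraries.

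Among the respiratory chain genes, 3 of 96 were at 0 reads throughout and 91 were tested; the other 2, Cox6b2 and Ndufa4l2, were too low for an adjusted p. Called means a DESeq2 adjusted p under 0.05, with adjustment over all 15581 genes tested, and a log2 fold change is siUpf1 over siCtl. By this rule 26 respiratory chain genes were lower in siUpf1, 11 were higher and 54 were not called. Their shares of 28.6% lower and 12.1% higher stand beside 26.3% lower and 24.2% higher among all protein-coding genes tested. Among all genes tested, 22.3% were called lower and 21.4% higher, 43.7% in either direction. The siUpf1 and siCtl libraries did not overlap at 59 of the 91 genes, 41 of them lower and 18 higher in siUpf1, whereas 68.5% of all genes tested did so. The median log2 fold change was -0.07 for the respiratory chain genes, -0.02 for all protein-coding genes tested and -0.001 for all genes tested. Below 0 lay 60 of the 91 respiratory chain genes (65.9%), 52.4% of protein-coding genes tested and 50.1% of all genes tested. Most differences were small. A log2 fold change past 0.5 in either direction was found at 7 of the 91 genes, and Cox6a2 was the 1 called gene at or past 1. Of the 12869 protein-coding genes tested, 3275 lay past 0.5 and 610 were called at or past 1.

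**Figure D1:**
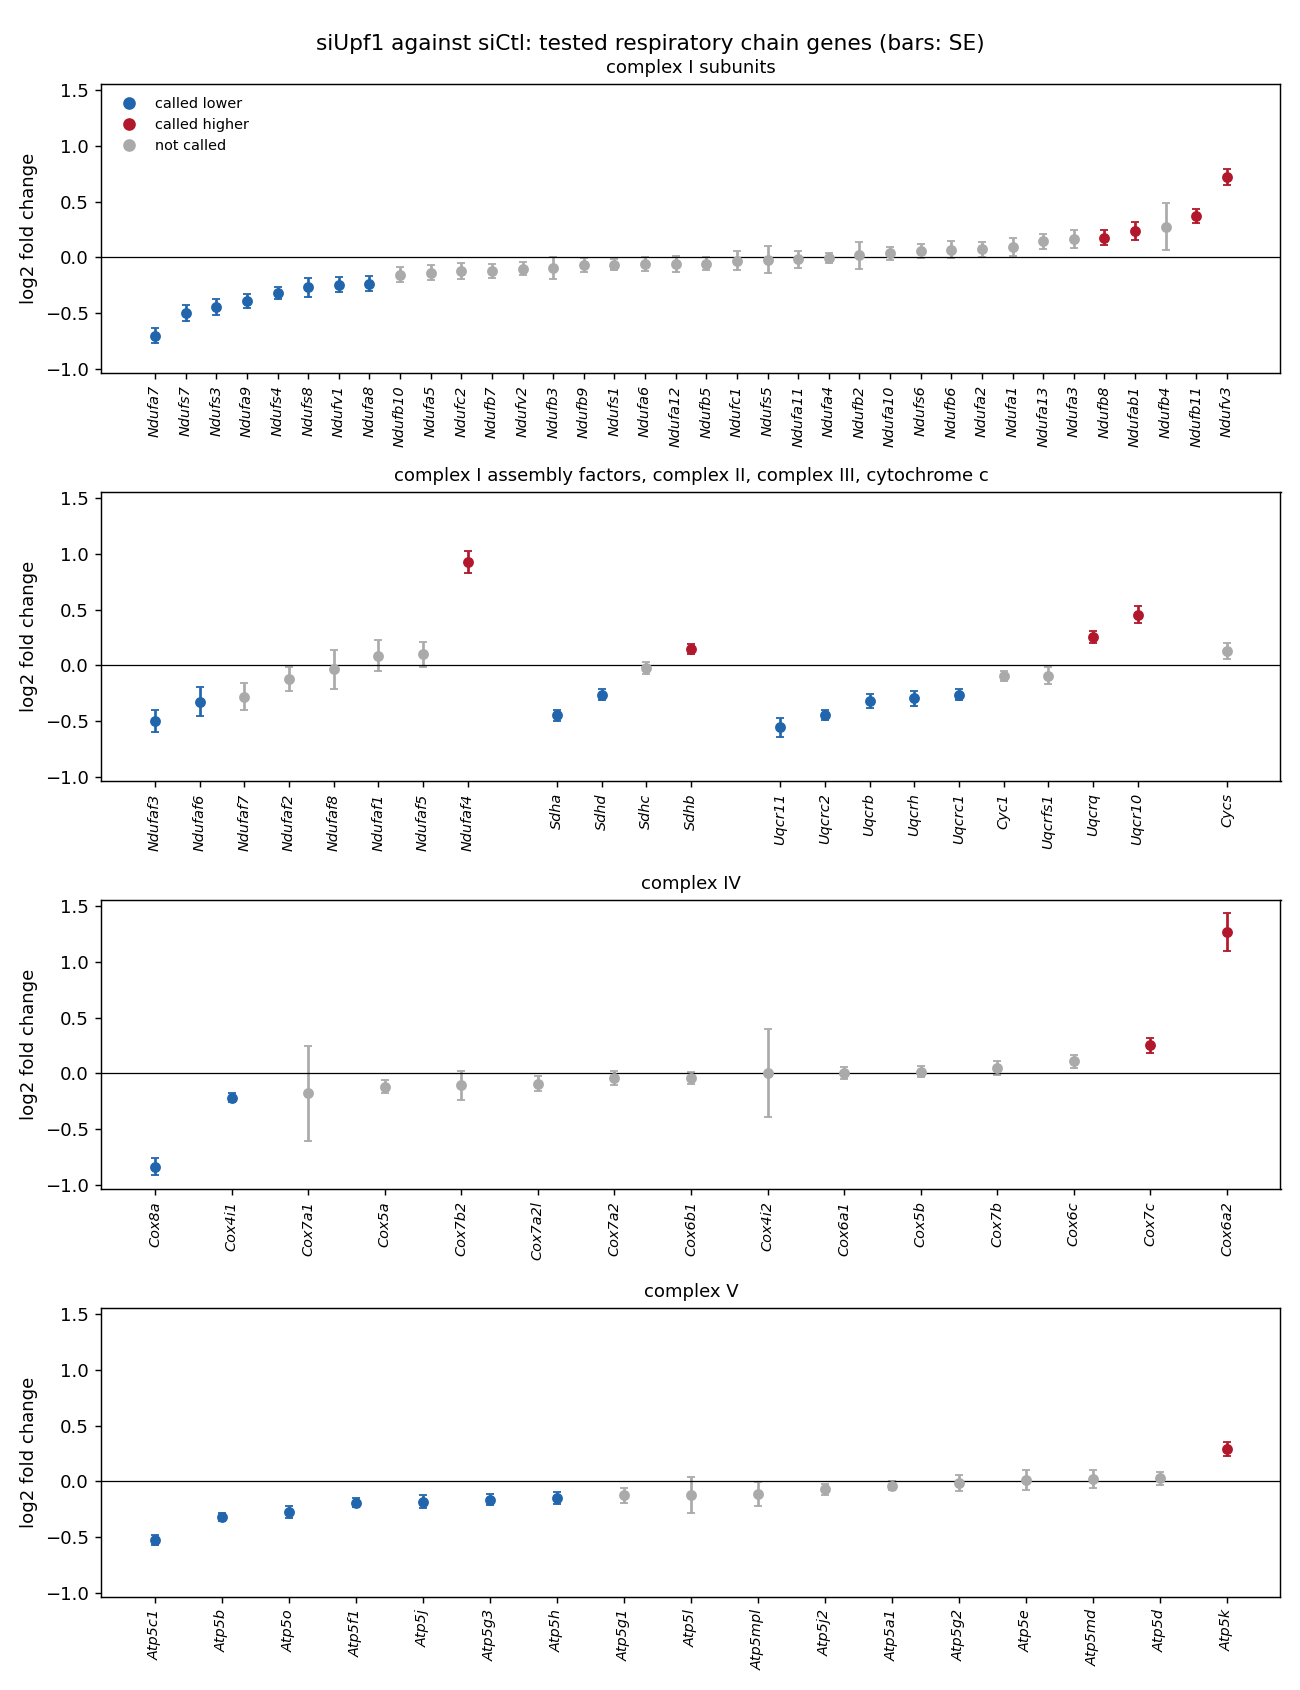
Log2 fold change of siUpf1 over siCtl (vertical axis) for 90 of the 91 tested respiratory chain genes (horizontal axis), grouped by complex and ordered by value. Points are DESeq2 estimates, bars are standard errors, and colour marks the 26 genes called lower, the 11 called higher and 53 that were not called; the values run from -0.84 for Cox8a to 1.27 for Cox6a2.

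Promoters are described first, since nuclear respiratory chain genes are textbook targets of NRF1 and of the ETS factor GABPA. Promoters of 300 bases, from 250 before to 50 after the annotated start, were listed by RefSeq (GRCm38.p6) for 78 of the 96 genes. The letters GCGCANGCG, read for NRF1 on both strands, stood in a promoter of 23 of the 75 tested genes with one (30.7%), against 15.2% of 10133 tested protein-coding genes with a listed promoter. The letters CCGGAAG, read for GABPA, stood in 19 (25.3%), against 19.9%. ATGGCGGC, read for YY1, was found at 7 (9.33%, against 5.61%), TATAAA at 7 (9.33%, against 8.53%) and GGGCGG, read for SP1, at 35 (46.7%, against 68.4%). The promoters below hold NRF1 or GABPA letters. Among such called genes they belong to the 3 with the lowest and the 2 with the highest log2 fold change. Called genes further out were passed over, among them Ndufa7 and Ndufv3, whose promoters hold neither, and Cox6a2, which has no listed promoter. Sequences are printed 5′ to 3′ on the strand of the gene with NRF1 or GABPA letters, or their reverse complement, in capitals.
Cox8a, chr19:7217567-7217866, minus strand: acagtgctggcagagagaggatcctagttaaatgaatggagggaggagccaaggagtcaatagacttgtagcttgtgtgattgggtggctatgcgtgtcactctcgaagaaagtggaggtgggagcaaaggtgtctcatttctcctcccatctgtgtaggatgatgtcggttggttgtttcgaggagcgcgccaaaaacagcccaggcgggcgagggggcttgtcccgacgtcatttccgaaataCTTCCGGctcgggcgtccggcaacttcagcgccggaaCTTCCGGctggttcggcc
Uqcr11, chr10:80406772-80407071, minus strand: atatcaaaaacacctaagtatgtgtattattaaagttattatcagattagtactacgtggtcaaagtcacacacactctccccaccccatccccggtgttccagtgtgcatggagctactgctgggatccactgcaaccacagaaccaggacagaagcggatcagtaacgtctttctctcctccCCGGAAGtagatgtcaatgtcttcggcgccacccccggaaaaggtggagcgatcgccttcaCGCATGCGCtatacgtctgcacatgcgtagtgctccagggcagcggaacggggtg
Atp5c1, chr2:10080383-10080682, minus strand: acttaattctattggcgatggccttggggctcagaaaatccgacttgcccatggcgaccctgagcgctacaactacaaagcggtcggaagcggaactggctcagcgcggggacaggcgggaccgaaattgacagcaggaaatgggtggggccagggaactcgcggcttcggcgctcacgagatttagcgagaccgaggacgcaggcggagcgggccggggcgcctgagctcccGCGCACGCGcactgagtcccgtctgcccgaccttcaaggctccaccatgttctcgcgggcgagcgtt
Atp5k, chr5:108434350-108434649, minus strand: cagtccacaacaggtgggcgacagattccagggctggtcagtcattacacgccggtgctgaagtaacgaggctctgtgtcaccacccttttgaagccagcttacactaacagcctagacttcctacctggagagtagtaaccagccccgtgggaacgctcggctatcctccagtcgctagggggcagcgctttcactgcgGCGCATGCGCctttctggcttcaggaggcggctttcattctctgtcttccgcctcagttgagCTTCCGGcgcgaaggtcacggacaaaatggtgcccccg
Ndufaf4, chr4:24897833-24898132, plus strand: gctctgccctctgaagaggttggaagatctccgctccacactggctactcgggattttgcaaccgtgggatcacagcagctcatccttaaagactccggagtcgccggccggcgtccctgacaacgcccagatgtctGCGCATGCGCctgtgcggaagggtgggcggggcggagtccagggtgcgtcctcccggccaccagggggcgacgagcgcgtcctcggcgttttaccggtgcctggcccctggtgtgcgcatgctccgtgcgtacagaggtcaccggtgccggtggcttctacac

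The Cox8a promoter carries the GABPA letters at 2 places, the Uqcr11 and Atp5k promoters hold letters of both factors, and those of Atp5c1 and Ndufaf4 hold NRF1 letters. Atp5c1 has another listed start, at whose promoter neither was found. Counts of calls were taken for each set of letters. Beside them stand 26.3% lower and 24.2% higher among all protein-coding genes tested. Of the 23 tested genes with NRF1 letters 9 were called lower and 2 higher (median log2 fold change -0.12), of the 19 with GABPA letters 8 were lower and 2 higher (median -0.12), and of the 39 with a listed promoter and neither set of letters 8 were lower and 6 higher (median -0.07). The 7 genes with YY1 letters had 4 lower and 0 higher (median -0.32), the 7 with TATAAA 2 lower and 0 higher (median -0.12) and the 35 with SP1 letters 7 lower and 5 higher (median -0.04), all by DESeq2 and with no test between sets. A match of letters is a description of the window and says nothing of binding in these cells.

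Complex I had 37 tested subunits, of which 8 were called lower and 4 higher, with a median log2 fold change of -0.06. These shares, 21.6% lower and 10.8% higher, stand beside 26.3% and 24.2% among all protein-coding genes tested. Ndufa7, an accessory subunit (chr17:33824572-33838317), measured 2520 and 2572 normalised counts in siCtl 1 and 3 and 1501, 1709 and 1498 in siUpf1 1 to 3. All siUpf1 libraries lay well below both siCtl libraries. The log2 fold change was -0.70 (SE 0.07, DESeq2 adjusted p = 2.06e-22), the lowest among complex I subunits. Ndufs7, which holds the last iron-sulfur cluster before ubiquinone, measured 1894 and 2066 in siCtl and 1337, 1470 and 1403 in siUpf1 (log2 fold change -0.50, SE 0.07, DESeq2 adjusted p = 2.72e-11). Ndufs3, a subunit of the arm that leads electrons to ubiquinone, measured 1429 and 1481 in siCtl and 1098, 1059 and 1050 in siUpf1, a log2 fold change of -0.44 (SE 0.07). Ndufa9 fell from 3439 and 3673 to 2674, 2867 and 2601, a log2 fold change of -0.39 (SE 0.06). At each of these the groups did not overlap, as at 68.5% of all genes tested. Ndufs4, Ndufs8, Ndufv1 and Ndufa8 were called lower by smaller amounts, with log2 fold changes of -0.32, -0.27, -0.25 and -0.24.

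The 7 core complex I subunits, the catalytic subunits of the matrix arm that have counterparts in the bacterial enzyme, all had a log2 fold change below 0 (median -0.25). Ndufs7, Ndufs3, Ndufs8 and Ndufv1 were called lower, and the others, among them Ndufv2 (-0.10) and Ndufs1 (-0.07), were not called. The 30 tested accessory Nduf subunits had a median of -0.02, with 4 lower and 4 higher. This grouping into core and accessory subunits was made after the values had been seen, and no test was run between the groups.

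Ndufv3, a small accessory subunit of the flavoprotein arm (chr17:31520115-31531331), went the other way. It measured 1286 and 1269 normalised counts in siCtl and 2207, 2125 and 1999 in siUpf1, so that every siUpf1 library exceeded both siCtl libraries by a wide margin (log2 fold change 0.72, SE 0.07, DESeq2 adjusted p = 2.99e-24). Ndufb11, encoded on the X chromosome, rose from 1636 and 1678 to 2101, 2220 and 2114 (log2 fold change 0.37, SE 0.06). Ndufab1, the mitochondrial acyl carrier protein, measured 996 and 900 in siCtl and 1117, 1131 and 1103 in siUpf1 (0.24, SE 0.08). Ndufb8 measured 2211 and 2256 in siCtl and 2391, 2720 and 2482 in siUpf1 (0.18, SE 0.07). Ndufb8 and Ndufab1 lost their calls in 4 and 2 of the alternatives, respectively.

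The complex I assembly factors, which build the enzyme but are not part of it, had 2 of 8 genes called lower and 1 higher, with a median of -0.08. That is 25% lower and 12.5% higher, against 26.3% and 24.2% of all protein-coding genes tested. Ndufaf4 (chr4:24898083-24905001), whose promoter with NRF1 letters is printed above, measured 479 and 535 normalised counts in siCtl and 1020, 909 and 967 in siUpf1. The siUpf1 mean was 190% of the siCtl mean with no overlap between groups (log2 fold change 0.93, SE 0.10, DESeq2 adjusted p = 3.04e-20). Ndufaf3 fell from 678 and 687 to 476, 492 and 482 (log2 fold change -0.50, SE 0.10, DESeq2 adjusted p = 4.51e-06). Ndufaf6 measured 385 and 385 in siCtl and 296, 321 and 305 in siUpf1 (-0.33, SE 0.13, DESeq2 adjusted p = 0.0284), a call lost in 6 of the alternatives. The other 5 Ndufaf genes were not called, with log2 fold changes from -0.28 (Ndufaf7) to 0.10 (Ndufaf5).

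Complex II, succinate dehydrogenase, links the tricarboxylic acid cycle to the chain and is the complex with nuclear-encoded subunits alone, so its 4 genes cover it. They did not move together. Sdha, the flavoprotein that oxidises succinate, measured 6018 and 6247 normalised counts in siCtl and 4515, 4605 and 4376 in siUpf1, which was 73.4% of the siCtl mean (log2 fold change -0.45, SE 0.05, DESeq2 adjusted p = 1.52e-19). Sdhd, a membrane anchor, measured 3836 and 3838 in siCtl and 3236, 3210 and 3143 in siUpf1 (-0.26, SE 0.05, DESeq2 adjusted p = 1.17e-06). Sdhc, the other anchor, measured 3085 and 3135 in siCtl against 3045, 3131 and 3019 in siUpf1, with overlapping libraries and no call (-0.02, SE 0.05). Sdhb, the iron-sulfur subunit that works between Sdha and the anchors, was called higher, from 8199 and 8351 to 8879, 9554 and 9171 (0.15, SE 0.05, DESeq2 adjusted p = 0.00228). The call of Sdhb was lost in 2 of the alternatives, among them the fit without siCtl 1.

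Complex III, the cytochrome bc1 complex, had 5 of 9 genes called lower and 2 higher, with a median log2 fold change of -0.26. That is 55.6% lower and 22.2% higher, against 26.3% and 24.2% of all protein-coding genes tested. Uqcr11, a small subunit with both sets of promoter letters above, measured 1222 and 1221 normalised counts in siCtl and 791, 928 and 782 in siUpf1 (log2 fold change -0.56, SE 0.09, DESeq2 adjusted p = 3.81e-09). Uqcrc2, a core protein that faces the matrix, fell from 5919 and 5849 to 4383, 4272 and 4303 (-0.45, SE 0.05, DESeq2 adjusted p = 6.29e-21). Uqcrb went from 2925 and 2969 to 2422, 2466 and 2218 (-0.32, SE 0.06), and Uqcrh, the acidic hinge protein beside cytochrome c1, from 2168 and 2171 to 1698, 1870 and 1742 (-0.30, SE 0.07). Uqcrc1, the partner of Uqcrc2, was called lower by 0.26. In these 5 genes the siUpf1 libraries lay below both siCtl libraries. Groups did not overlap, in either direction, at 68.5% of all genes tested.

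The redox subunits of complex III were not called. Cyc1, cytochrome c1, measured 8882 and 9046 in siCtl and 8091, 8831 and 8249 in siUpf1, a separation of the groups with an adjusted p of 0.0864 (DESeq2, log2 fold change -0.10, SE 0.05). Uqcrfs1, the Rieske iron-sulfur protein, had -0.09 (SE 0.08). A pair of small subunits rose: Uqcr10 from 1264 and 1426 to 1750, 1927 and 1872 (0.46, SE 0.08, DESeq2 adjusted p = 7.74e-09), and Uqcrq from 3842 and 3998 to 4517, 4969 and 4585 (0.26, SE 0.06, DESeq2 adjusted p = 1.31e-05). Small subunits of this complex therefore lay at both ends of its range. The call of Uqcrq was lost in 1 of the alternatives. Cycs, the mobile carrier cytochrome c, measured 1508 and 1542 in siCtl and 1630, 1761 and 1628 in siUpf1 and was not called by DESeq2 (0.13, SE 0.07, adjusted p = 0.113), but was by edgeR (adjusted p = 0.0379).

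**Figure D2:**
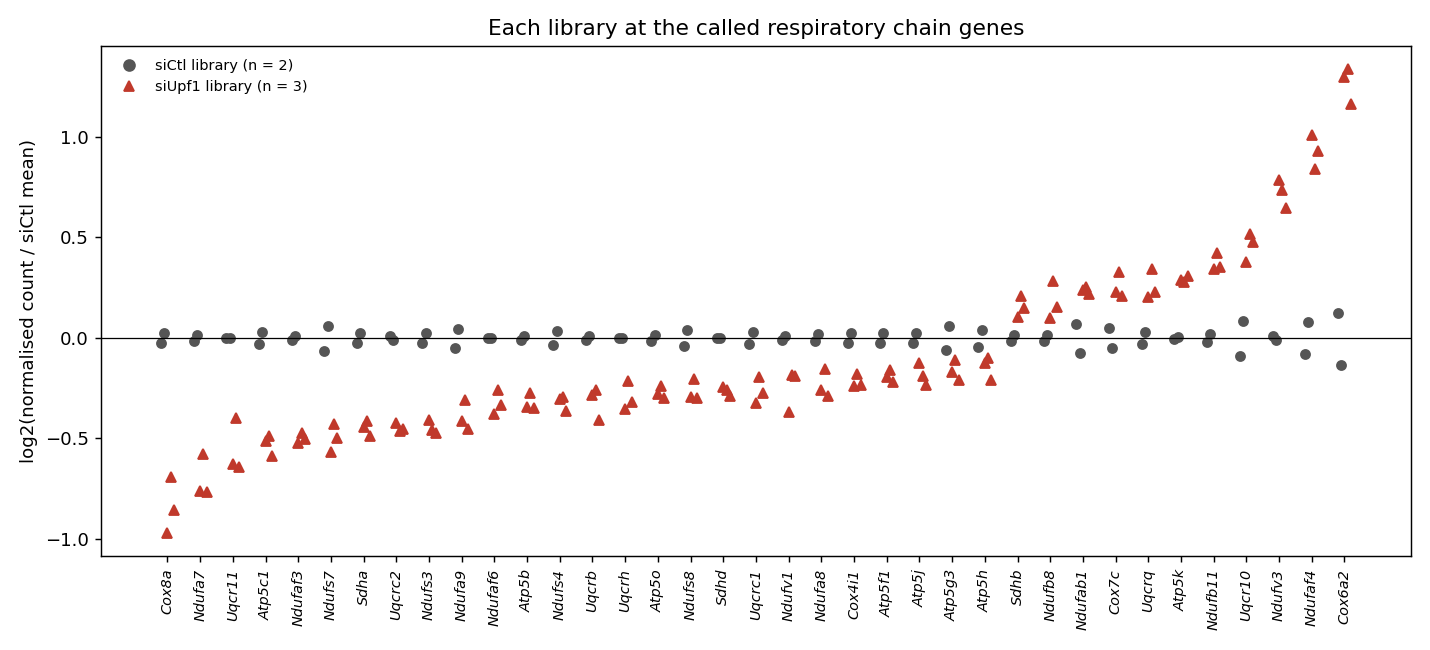
Normalised count of each library relative to the siCtl mean on a log2 scale (vertical axis) at the 37 called respiratory chain genes (horizontal axis), ordered by log2 fold change. Grey circles are the 2 siCtl and red triangles the 3 siUpf1 libraries. At every gene shown the triangles lie on 1 side of both circles, from Cox8a at the left to Cox6a2 at the right. The genes are drawn because these same libraries called them, so the separation is no further evidence. Of all genes tested, 68.5% had groups that did not overlap.

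Complex IV, cytochrome c oxidase, had the widest range of any complex and the smallest share of calls among complexes I to V, with 2 of 15 tested genes lower, 2 higher and a median of -0.04. Its 13.3% in each direction stand beside 26.3% lower and 24.2% higher among all protein-coding genes tested. Cox8a (chr19:7215153-7217616), the widely expressed isoform of a small transmembrane subunit, measured 2208 and 2282 normalised counts in siCtl and 1146, 1392 and 1240 in siUpf1. The siUpf1 mean was 56.1% of the siCtl mean, the lowest of the tested respiratory chain genes (log2 fold change -0.84, SE 0.08, DESeq2 adjusted p = 2.36e-25). Cox4i1, the common isoform of a large nuclear-encoded subunit, measured 12464 and 12892 in siCtl and 10727, 11186 and 10774 in siUpf1 (-0.22, SE 0.04, DESeq2 adjusted p = 6.37e-07). Cox7c rose from 1905 and 1784 to 2161, 2314 and 2128 (0.25, SE 0.07, DESeq2 adjusted p = 4.01e-04). Of the 100-base windows of the Cox7c mRNA, 55.6% were found in no transcript of another annotated gene, so its count is uncertain. The call of Cox7c was lost in 2 of the alternatives, among them the fit without siCtl 3.

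Cox6a2 (chr7:128205435-128206387), the heart and skeletal muscle isoform of its subunit, was the called gene with the largest rise. It measured 130 and 108 normalised counts in siCtl and 293, 301 and 267 in siUpf1, which was 241% of the siCtl mean (log2 fold change 1.27, SE 0.17, DESeq2 adjusted p = 2.32e-12). Every 100-base window of its mRNA was found in no other annotated transcript. Per transcript length it stayed far below the common isoform Cox6a1, at 13.6 TPM (reads per transcript length, scaled to the same total in each library) in siCtl and 33.1 in siUpf1 against 496 and 503 for Cox6a1, which itself did not pass the test (log2 fold change 0.00, SE 0.05).

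The other tissue isoforms of complex IV showed no such difference. Cox4i2, the lung isoform, measured 54.5 and 32.1 in siCtl and 53.4, 27.6 and 47.2 in siUpf1, with a standard error of 0.39 around a log2 fold change of 0.00. Cox7a1, the muscle isoform, measured 36.7 and 27.4 in siCtl and 23.1, 32.6 and 29.4 in siUpf1 (-0.18, SE 0.43), a depth at which only large changes would show. Cox7a2 (-0.04), Cox7a2l (-0.09), Cox7b (0.05), Cox7b2 (-0.11) and Cox6b1 (-0.04) were not called. Cox7b2, known from testis, was present at 57.9 TPM in siCtl beside 149 TPM for Cox7b. Cox6b2 had 3 reads in all libraries together and no adjusted p, and Cox8b and Cox8c had 0 reads in every library. Ndufa4, named as a complex I gene but found in complex IV, measured 6310 and 6695 in siCtl and 6542, 6578 and 6325 in siUpf1 (-0.01, SE 0.05), while its relative Ndufa4l2 had 3 and 4 reads in siCtl and 7, 8 and 9 in siUpf1 and no adjusted p.

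**Figure D3:**
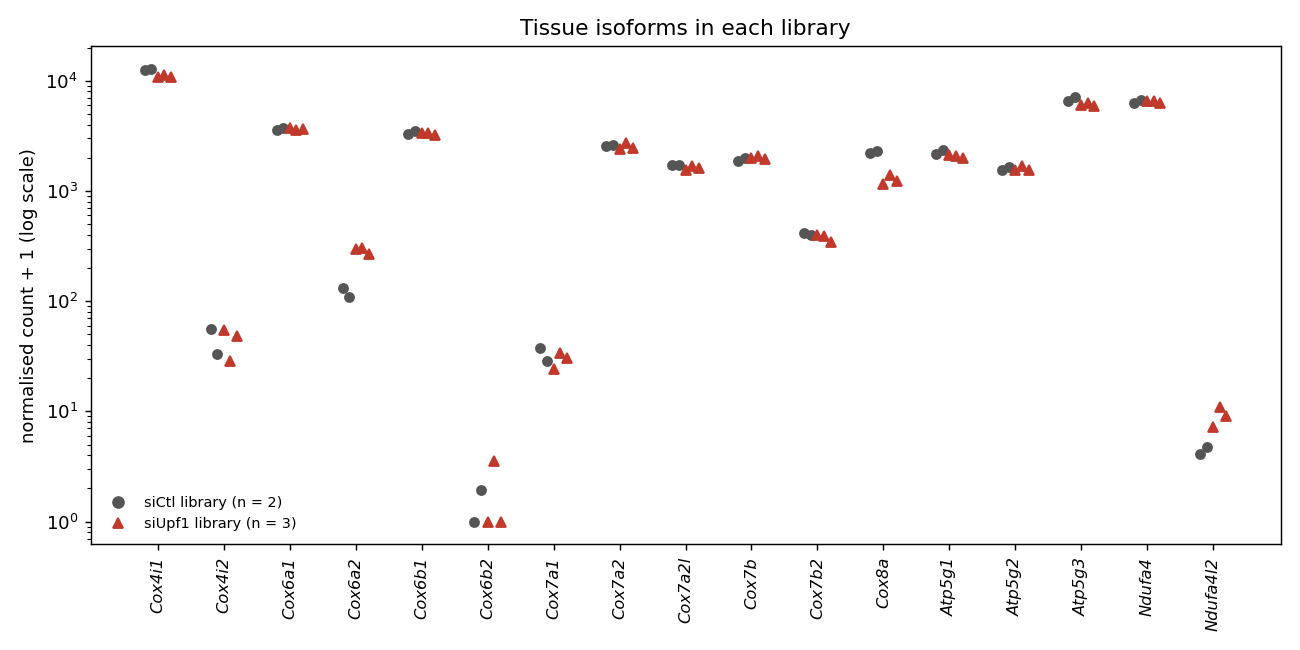
Normalised count plus 1 on a log axis (vertical) for the tissue isoforms of complex IV subunits, the 3 genes of the complex V c subunit and the Ndufa4 genes (horizontal axis), with grey circles for the 2 siCtl and red triangles for the 3 siUpf1 libraries. Cox6a2 and Cox8a differ between groups without overlap, at 108 to 130 against 267 to 301 and at 2208 to 2282 against 1146 to 1392; Cox8b and Cox8c, with 0 reads, are not drawn.

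Complex V, ATP synthase, had 7 of 17 tested genes called lower and 1 higher, with a median log2 fold change of -0.12. That is 41.2% lower and 5.88% higher, against 26.3% and 24.2% of all protein-coding genes tested. Atp5c1, which encodes the rotating gamma subunit (chr2:10056016-10080510), measured 9618 and 10002 normalised counts in siCtl and 6866, 7007 and 6530 in siUpf1 (log2 fold change -0.53, SE 0.05, DESeq2 adjusted p = 7.28e-29). Atp5b, the catalytic beta subunit and the most abundant of the respiratory chain mRNAs per length, at 3050 TPM in siCtl, measured 74702 and 75928 in siCtl and 59275, 62322 and 59206 in siUpf1 (-0.32, SE 0.04, DESeq2 adjusted p = 1.07e-16). Its partner in the catalytic ring, Atp5a1, measured 25697 and 26095 in siCtl against 24691, 26252 and 24811 in siUpf1, with overlapping libraries and no call (-0.04, SE 0.04). Within the catalytic head, then, the alpha and beta subunits differed in outcome, and the delta (Atp5d, 0.03) and epsilon (Atp5e, 0.01) subunits of the central stalk were not called either.

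The peripheral stalk holds the head still while the rotor turns, and all 4 of its tested genes were called lower. The share called lower among all protein-coding genes tested was 26.3%. Atp5o, the subunit that binds the head, went from 4196 and 4293 to 3493, 3591 and 3452 (-0.27, SE 0.05, DESeq2 adjusted p = 2.76e-07). Atp5f1 went from 8702 and 9032 to 7762, 7952 and 7616 (-0.19, SE 0.04, DESeq2 adjusted p = 5.10e-05), a call lost in 1 of the alternatives. Atp5j (-0.18, SE 0.06) and Atp5h (-0.15, SE 0.05) had smaller changes, and whether their calls held in the alternatives was not followed gene by gene. All 4 genes had groups that did not overlap, as did 68.5% of all genes tested. Another gene identifier named Atp5o had 0 reads in every library, and 69.7% of the windows of the measured Atp5o were found in no other gene. For Atp5h this share was 67.3%, for Atp5f1 83.2% and for Atp5j 96.5%.

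The c subunit of the rotor ring is encoded by 3 genes that make the same mature protein from different precursors. Atp5g3, at 742 TPM in siCtl, was called lower, from 6541 and 7099 to 6068, 6322 and 5889 (-0.16, SE 0.05, DESeq2 adjusted p = 0.00423). This call was lost in 3 of the alternatives, among them the fit without siCtl 3. Atp5g1 (-0.12, SE 0.07) and Atp5g2 (-0.01, SE 0.07) were not called, and 13.6% of the windows of Atp5g2 were found in no other gene, so its level is uncertain. Among the small membrane subunits, Atp5k, the e subunit, rose from 1581 and 1595 to 1937, 1927 and 1966 (0.29, SE 0.06, DESeq2 adjusted p = 1.91e-05), while Atp5l, Atp5mpl, Atp5j2 and Atp5md were not called and ranged from -0.12 to 0.03.

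Summed over all 96 genes, respiratory chain reads made up 13020 and 13564 RPM in siCtl 1 and 3 and 12284, 12206 and 11993 in siUpf1 1 to 3. The siUpf1 mean was 91.5% of the siCtl mean and the groups did not overlap. With 2 against 3 libraries the exact two-sided permutation p is 0.1, the smallest this design allows. Complex V measured 6157 and 6395 in siCtl and 5533, 5505 and 5398 in siUpf1 (87.3% of siCtl), and much of that was 1 gene. Atp5b alone went from 2943 and 3026 RPM to 2437, 2434 and 2396. Without Atp5b complex V stood at 92.9% of siCtl and all the other genes together at 94.5%, still with no overlap between groups. Complex III stood at 91.4% of siCtl, complex II at 94.8%, complex IV at 95.1% and complex I subunits at 96.4%, the last with overlapping libraries. Cytochrome c (111%) and the complex I assembly factors (105%) lay above siCtl, the latter with overlapping libraries. RPM is a share of assigned reads, so it can also fall where other RNAs rise. In bulk RNA, fewer mRNAs per cell, a rise of other RNAs and a different mix of cells cannot be told apart.

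**Figure D4:**
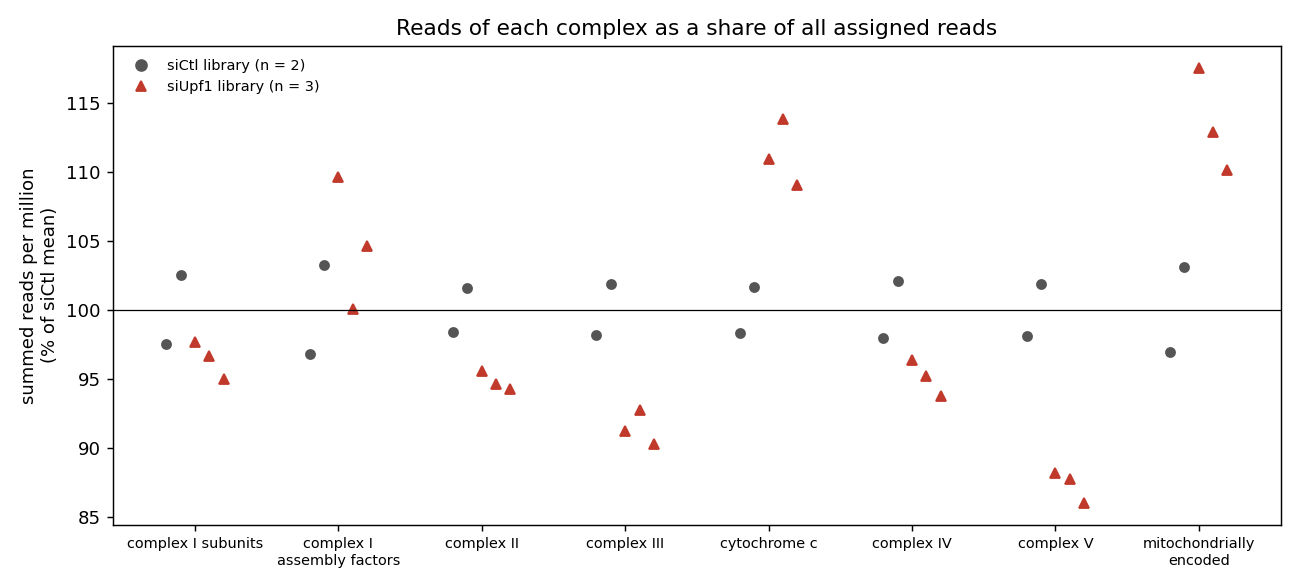
Summed RPM, as a percentage of the siCtl mean (vertical axis, which does not start at 0), for each complex and for the mitochondrially encoded genes (horizontal axis). Grey circles are the 2 siCtl and red triangles the 3 siUpf1 libraries. Complex V lies at 87.3% of siCtl on average and the mitochondrially encoded genes, of which 8 of 13 had a read, at 113.5%.

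The mRNAs encoded by mitochondrial DNA were set beside the nuclear ones. Of the 13 genes, 5 had 0 reads in every library and mt-Atp6 had 1 read in all. Both complex V genes (mt-Atp6, mt-Atp8) thus went unmeasured, as did mt-Co2 and mt-Co3 of complex IV and mt-Nd3 and mt-Nd4l of complex I. Why reads were missing there was not tested. Of 7 tested, 0 were called lower and 6 higher by DESeq2, with a median log2 fold change of 0.17. The shares among all protein-coding genes tested were 26.3% lower and 24.2% higher. mt-Nd1, a complex I core subunit, measured 70677 and 76602 normalised counts in siCtl and 91210, 90567 and 86173 in siUpf1 (0.28, SE 0.04, DESeq2 adjusted p = 9.55e-10), and mt-Co1, the catalytic subunit of complex IV, 145452 and 144811 in siCtl and 159296, 160309 and 160381 in siUpf1 (0.14, SE 0.03). mt-Cytb was the gene not called (0.09, SE 0.04). At an unadjusted p under 0.05, 0 were lower and 7 higher, and edgeR also called 0 lower and 6 higher. The summed reads of the mitochondrially encoded genes that had any were 113.5% of siCtl. Leaving these genes and the abundant transcript Gm42418 out of the fit left 27 nuclear respiratory chain genes called lower and 11 higher.

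Proteins that assemble or control the complexes without being subunits were described from lists of 49 genes, of which 48 were tested. Here 7 were called lower (14.6%) and 13 higher (27.1%), with a median log2 fold change of 0.15. Among all protein-coding genes tested, 26.3% were called lower and 24.2% higher. Complex IV assembly factors gave 7 of the calls higher and 3 lower among 22 tested. Coa4 (0.67), Cox19 (0.65), Coa7 (0.58) and Surf1 (0.57) had the highest values among these, and Cox10, which takes part in making heme A, rose from 1365 and 1371 to 1895, 2097 and 2066 (0.56, SE 0.07). Cox11, which inserts copper, fell from 515 and 505 to 300, 286 and 279 (-0.82, SE 0.12). Nubpl, which delivers iron-sulfur clusters to complex I, fell from 290 and 294 to 156, 149 and 156 (-0.92, SE 0.16), and Tmem126b, another complex I assembly factor, rose by 0.48. Of the complex II assembly factors 0 of 4 were called by DESeq2, with 1 (Sdhaf1) higher at an unadjusted p under 0.05 and 2 called higher by edgeR.

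Regulators of mitochondrial gene expression gave 7 called lower (46.7%) and 1 higher (6.67%) among 15 tested. The shares over all protein-coding genes tested were 26.3% lower and 24.2% higher. Gabpb1, the beta chain of the GABPA complex, measured 1230 and 1161 in siCtl and 868, 815 and 753 in siUpf1 (-0.56, SE 0.09), whereas Gabpa itself was not called (-0.04, SE 0.07). Nrf1 had -0.17 (SE 0.08, DESeq2 adjusted p = 0.0494), close to the threshold, and Tfb2m, a mitochondrial transcription factor, fell by 0.61. Esrra, a nuclear receptor that binds promoters of respiratory chain genes, rose by 0.31.

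Enzymes of the tricarboxylic acid cycle were split, with 6 lower (46.2%) and 5 higher (38.5%) of 13. Beside them stand 26.3% lower and 24.2% higher among all protein-coding genes tested. Sucla2 (-0.67) and Suclg1 (-0.41), subunits of succinyl-CoA ligase, fell, whereas Suclg2, another subunit of that enzyme, rose by 0.17 (DESeq2 adjusted p = 0.0443). Idh3b (0.30) and Cs, citrate synthase (0.29), rose. Among carriers, Slc25a3, which brings in the phosphate that complex V uses, went from 11037 and 10986 to 7072, 7335 and 7059 (-0.62, SE 0.04), and Slc25a4, an ADP/ATP carrier, from 14042 and 14304 to 19615, 20416 and 19127 (0.48, SE 0.04).

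**Figure D5:**
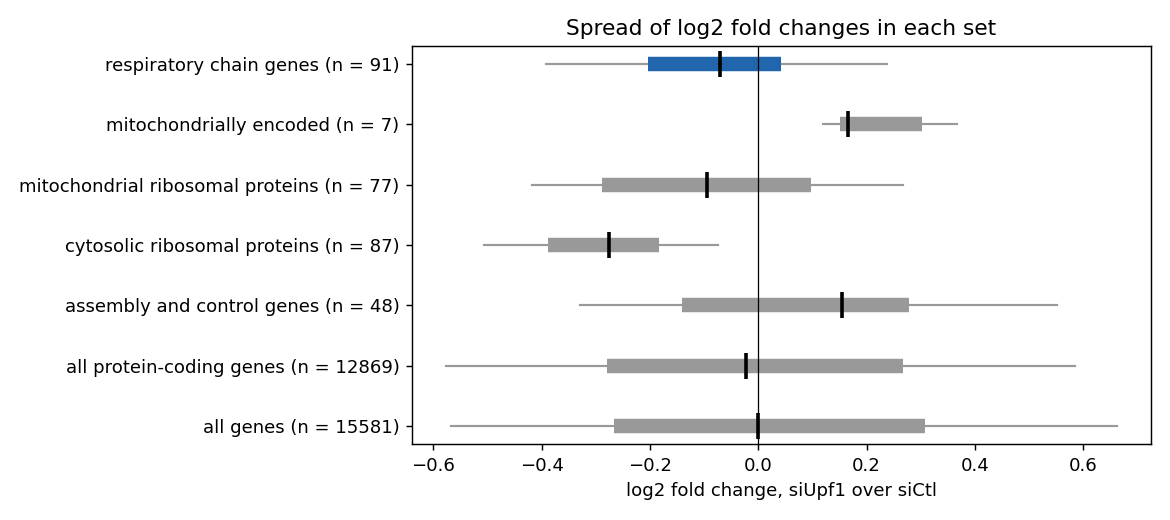
Spread of log2 fold changes of siUpf1 over siCtl (horizontal axis) in each set of tested genes (vertical axis, with the number of genes). Black ticks are medians, thick bars run from the 25th to the 75th percentile and thin lines from the 10th to the 90th; the respiratory chain genes (median -0.07, 25th to 75th percentile -0.20 to 0.04) lie between the cytosolic ribosomal protein genes (-0.28) and the mitochondrially encoded genes (0.17).

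Compared with all protein-coding genes, the respiratory chain genes were spread over a narrower range, with the 10th and 90th percentiles of the log2 fold change at -0.39 and 0.24 against -0.58 and 0.59. This was not particular to them. The same percentiles were -0.42 and 0.27 for mitochondrial ribosomal protein genes and -0.51 and -0.07 for cytosolic ones. The part of read depth in these ranges was not tested. Mitochondrial ribosomal protein genes, which serve translation of the mitochondrially encoded subunits, had 30 lower and 10 higher of 77 and a median of -0.10. Cytosolic ribosomal protein genes had 68 lower and 1 higher of 87 and a median of -0.28. The shares among all protein-coding genes tested were 26.3% lower and 24.2% higher. No test was run between these sets.

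The mRNAs of the respiratory chain share features that the selection by name did not use. Their transcripts were short, with a median length of 838 nucleotides against 2922 for tested protein-coding genes, a median coding length of 432 against 1389, a median 3′ UTR of 162 against 937 and a median of 4 exons against 9. GC content did not set them apart, at 51.0% against 50.8%. A trend with GC and with the joint length of all annotated exons of a gene, another measure than transcript length, was removed in 1 alternative. It left 30 genes called lower and 13 higher. In that fit 3910 of all 15036 genes tested were called lower and 3240 higher. NMD isoforms were annotated for 22 of the 91 tested genes (24.2%, against 28.4% of protein-coding genes), and of these 8 were called lower and 1 higher. Of the 69 without one, 18 were lower and 10 higher. The medians were -0.07 with and -0.07 without an NMD isoform. Among all protein-coding genes tested, 26.3% were called lower and 24.2% higher, and among all genes tested 22.3% and 21.4%.

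Letters matching the seed of the Upf1 siRNA were also looked for. A match to bases 2 to 8 of its sense strand (AACCTTG) stood in the 3′ UTR of 1 tested respiratory chain gene, Cox8a, and of 9.36% of tested protein-coding genes. It begins at base 221 of the 236-base Cox8a 3′ UTR and is shown in capitals with the bases beside it.
Cox8a 3′ UTR site: agtctatttaAACCTTGctccagaaa
Matches to the antisense-strand seed (GATAATT) stood in the 3′ UTRs of Atp5a1 and Cycs, neither of them called by DESeq2. The part of such sites in the level of Cox8a was not tested.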

How the data were processed

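Polyadenylated RNA of N2A cells was sequenced as 5 stranded libraries (2 siCtl, 3 siUpf1). The deposited values were raw counts per gene, made by the authors with bcl2fastq, fastp, STAR (2.7.0f, GRCm38.p6) and featureCounts (Subread 1.6.4, reverse strand, exons), versions per the submitters' processing notes. Here the counts were normalised by DESeq2 (1.42.0, R 4.3.3) size factors and tested with its two-sided Wald test, group as the only term, independent filtering set to the call threshold of 0.05. Adjustment was Benjamini-Hochberg over all genes tested. edgeR (4.0.16) was an alternative. Scripts were tested on simulated data. Features came from GENCODE M21 (99.8% of identifiers found), and TPM from reads over transcript length.

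Named were, per complex, up to 4 called genes at each end and 50 or more normalised counts on average, all complex II genes, Cyc1, Cycs and tissue isoforms. Other genes, and the division into core, accessory and stalk subunits, were chosen after their values were seen. The genes and lists were chosen with earlier results of these data known. Of the listed assembly genes, Coa1 was not found by name and Pet117 had 0 reads. Single genes not reported here were kept in all counts.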

Additional observations from a re-analysis of the deposited data

How the results depend on the processing

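Across 14 alternatives, 19 to 30 respiratory chain genes were called lower and 6 to 14 higher, the median log2 fold change ran from -0.10 to -0.05, and 0 of the 37 called genes were called in the opposite direction. Under the replicate block, 19 were lower and 6 higher, with 25 of the 37 calls kept. Lost calls of single genes were followed at 49 named genes only. Ndufs4, Ndufs8, Ndufv1, Ndufa8, Uqcrc1, Atp5j and Atp5h were called but are not among these. Deviations from the group means did not pair same-numbered libraries (correlation -0.09 for number 1 and -0.07 for number 3, over 11898 genes, with no siCtl library numbered 2), so the replicate block is given here only. Deviations of the 2 siCtl libraries from their mean are opposite by construction, so the correlations are not separate checks. Without siCtl 3, 20 were lower and 8 higher and 28 calls were kept; leaving out single libraries gave 20 to 30 lower and 8 to 12 higher. With 1 siCtl library left, its spread is assumed to be that of siUpf1. DESeq2's default filtering level, chosen after seeing the data, tested 16672 genes and called 26 lower and 11 higher. Of 654 values of named genes under alternatives, 605 kept direction and call, 21 lost the call, 3 gained it, 18 changed sign, with no call in either fit, and 7 gained, lost or lacked an adjusted p. The cause was not tested. The sign changes were at Ndufa4 (0.001 by edgeR, 0.016 with total counts, 0.024 with the length and GC trend removed), Cox4i2 (-0.006 with TMM), Cox6a1 (-0.005 with TMM), and Atp5g2 (0.008 with total counts, 0.040 with the trend removed), and when single libraries were left out. Cox6b2, with 3 reads in all and no adjusted p, also changed sign. Leaving out single libraries gave -0.051 to 0.036 for Ndufa4, -0.34 to 0.423 for Cox4i2, -0.019 to 0.021 for Cox6a1, -0.059 to 0.028 for Atp5g2 and -0.379 to 0.043 for Cox7a1. Genes with under 60 normalised counts (Cox4i2, Cox7a1) limit what depth can show.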
